A study of Mus musculus with 6 samples.

Results

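The transcription factors that set or keep Sertoli cell fate were followed in bulk RNA of whole mouse testis. Their 10 genes, Sox9, Sox8, Wt1, Gata1, Gata4, Gata6, Nr5a1, Dmrt1, Nr0b1 and Emx2, were taken by symbol from a table of 55850 genes, and all 10 were found. The table covers 6 testis samples, 3 with the genotype label WT and 3 with the label CKO, written cKO here, all labelled as untreated. The series title places the loss of the splicing factor SRSF2 in Sertoli cells, and whole testis also holds the other cell types. Not given in the sources used here are the promoter that drives the deletion, the deleted part, the strain, the age and the WT genotype at the Srsf2 alleles. No label says whether each sample is a separate animal, so a p-value reflects the spread among these samples alone, and that spread may be technical.

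Sertoli cells are the somatic nurse cells of the seminiferous tubule. In the fetal XY gonad, Nr5a1, Wt1, Gata4 and Emx2 act early in forming the gonad, and Sry then switches on Sox9, which Sox8 backs up. Dmrt1 guards the male state later against a turn to granulosa cell fate. These factors switch on effector genes such as Amh, the hormone that removes the female duct, and Amh is a textbook target of SOX9, WT1, GATA4 and NR5A1. Several of the factors are not private to Sertoli cells: Nr5a1, Gata4, Gata6 and Nr0b1 are also used by Leydig or adrenal cells, Dmrt1 by germ cells and Gata1 by blood precursors. In bulk tissue, fewer cells of a type and less RNA per cell cannot be told apart.

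Depth was even, at 16070287 to 17281330 reads per library, recovered from FPKM (reads or fragments relative to gene length and library size). Srsf2, the targeted gene, stood at 127, 96.7 and 102 FPKM in the WT libraries and at 74.0, 87.3 and 87.3 FPKM in the cKO libraries. The groups did not overlap, with a log2 difference of -0.38 (SE 0.15, limma adjusted p = 0.384). Sertoli cells were well represented, with 27 of 28 Sertoli effector genes at a mean of at least 1 FPKM. Reads of 18S ribosomal RNA made up 1.58 to 2.09% of WT and 0.727 to 0.835% of cKO libraries, and the share of mitochondrial genes was 1.66 to 1.98% in WT and 2.39 to 2.97% in cKO, both without overlap. With ribosomal RNA, mitochondrial and haemoglobin genes left out of the scaling, Sox9 was at -0.23 and Amh at -0.99 on the log2 scale, and 0 of the 10 factors passed.

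The 10 factors spanned a wide range of levels, and none differed between the genotypes past the threshold. All 10 had a mean of at least 1 FPKM and were tested with limma on log2(FPKM + 1) over 14238 genes, with Benjamini-Hochberg adjustment at 0.05. Of the 10, 0 passed in either direction, where 0.014% of all tested genes did. At an unadjusted p under 0.05, 1 factor was lower (Dmrt1) and 0 were higher, against 7.68% of tested genes lower and 4.65% higher. A log2 difference was negative for 8 of 10 factors and for 49.2% of all tested genes, with medians of -0.10 and 0.00 (0.004934 before rounding). Without WT replicate 3, 5 of 10 were negative and the median was -0.01. That library had the highest WT level for 7 of the 10 factors, and WT replicate 1 had the lowest for 6.

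**Figure D1:**
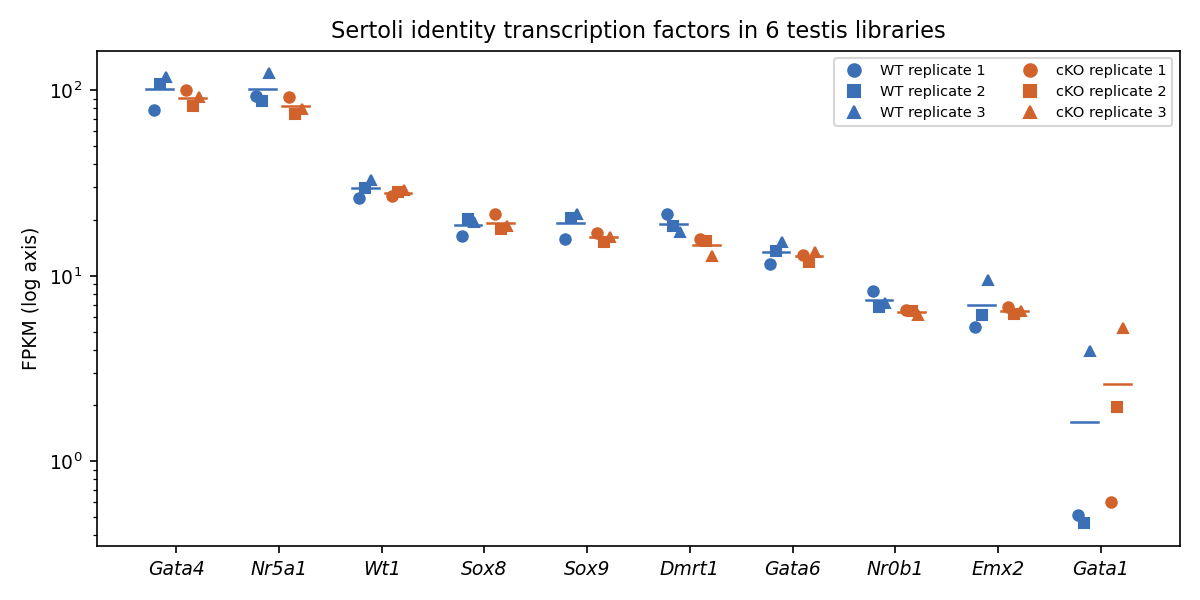
FPKM of the 10 factors on a log axis, 1 point per library (WT blue, cKO orange, replicate by shape) with the group mean as a line. The cKO points of Dmrt1 and Nr0b1 lie below all their WT points, the other 8 factors overlap, and Gata1 spreads over a wide range within both groups.

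Gata4 and Nr5a1 were the most abundant of the set. Ranked by mean FPKM among 990 tested genes to which the authors' table gives a transcription factor family, Gata4 stood at position 6 and Nr5a1 at position 8. Wt1 followed at 70, then Sox8, Sox9, Dmrt1 and Gata6 at 137, 149, 158 and 208. Nr0b1 and Emx2 stood at 418 and 429, close to the middle, and Gata1 at 810. Neighbours in this order were not separated by their spread in several places: WT levels overlapped between Gata4 and Nr5a1, among Sox8, Sox9 and Dmrt1, and between Nr0b1 and Emx2.

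Sox9, the SOX factor that carries the testis switch forward, had 15.8, 20.5 and 21.4 FPKM in the WT libraries and 17.1, 15.3 and 16.1 FPKM in the cKO libraries. Its groups overlapped, since WT replicate 1 lay below 2 of the cKO libraries. The cKO mean was 83.9% of the WT mean, 16.2 ± 0.908 against 19.2 ± 2.999 FPKM (SD, n = 3). On the log2 scale the difference was -0.23 (SE 0.14, 95% interval -0.54 to 0.09, limma adjusted p = 0.508). It was -0.36 without WT replicate 1 and -0.15 without WT replicate 3. The gene (ENSMUSG00000000567) lies on chromosome 11 at 112782224 to 112787760 of GRCm38, plus strand, with exons clear of other annotated genes.

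Sox8, the close relative of Sox9 with overlapping function in Sertoli cells, had 16.3, 20.2 and 19.5 FPKM in WT and 21.5, 17.8 and 18.5 FPKM in cKO libraries. The groups overlapped and the means were nearly level, at 18.7 ± 2.06 and 19.3 ± 1.95 FPKM (SD, n = 3). The log2 difference was 0.04 (SE 0.13, 95% interval -0.25 to 0.34, limma adjusted p = 0.898). It was 0.29 after trends with gene length and GC content were removed from each library, at an unadjusted p of 0.0347 and an adjusted p of 0.581. Sox8 shares exon bases with 2810468N07Rik on the opposite strand, and the use of strand in the counting is not given in the sources used.

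The ratio of the SOX pair did not overlap between the genotypes, although each gene did. Sox9 over Sox8 in FPKM was 0.970, 1.01 and 1.10 in the WT libraries and 0.796, 0.860 and 0.868 in the cKO libraries. Every cKO library lay below every WT library in this ratio. The ratio was chosen after its genes' values were seen, so it is given as a description with no test. Sox10, the remaining gene of the same SOX group, is best known from neural crest. It was less abundant, at 4.35 ± 1.14 FPKM in WT against 2.96 ± 0.290 in cKO testis (SD, n = 3). Its groups did not overlap, and the log2 difference was -0.42 (limma adjusted p = 0.393). Sox10 was at -0.14 with length and GC trends removed and -0.25 without WT replicate 3, and at -0.67 with library weights estimated in limma, where it passed (adjusted p = 0.0467).

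Of the GATA factors, Gata4, an activator of Amh and of many gonadal genes, had 78.2, 108 and 117 FPKM in the WT libraries and 99.7, 82.0 and 91.6 FPKM in the cKO libraries. All 3 cKO libraries fell inside the WT range. The log2 difference was -0.13 (SE 0.17, 95% interval -0.53 to 0.27, limma adjusted p = 0.763), -0.30 without WT replicate 1, -0.014 without WT replicate 3 and -0.016 with length and GC trends removed. Peritubular and Leydig cells also express Gata4.

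Gata6, which shares gonadal roles with Gata4, had 11.5, 13.6 and 15.3 FPKM in WT and 12.99, 11.9 and 13.4 FPKM in cKO libraries. Here too the cKO libraries lay inside the WT range, and the log2 difference was -0.07 (SE 0.13, 95% interval -0.36 to 0.23, limma adjusted p = 0.832). Gata4 was 7.45 ± 0.598 times as abundant as Gata6 in WT and 7.14 ± 0.468 times in cKO libraries (SD, n = 3), so the balance of this pair overlapped. Gata6 shares exon bases with 1010001N08Rik on the opposite strand. Gata2, a related gene best known from blood and endothelium, was much lower, at 2.91 ± 0.316 FPKM in WT against 2.13 ± 0.536 in cKO testis (SD, n = 3). Its groups did not overlap, and the log2 difference was -0.33 (limma adjusted p = 0.442). That difference was -0.17 with length and GC trends removed and -0.18 without cKO replicate 2.

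Gata1, which Sertoli cells express after birth and which blood precursors need, behaved unlike the other 9 factors within each group. It had 0.516, 0.464 and 3.92 FPKM in the WT libraries and 0.601, 1.96 and 5.23 FPKM in the cKO libraries, from 20, 19 and 156 reads and from 25, 84 and 208 reads. WT replicate 3 and cKO replicate 3 were high, WT replicates 1 and 2 and cKO replicate 1 were low, and the groups overlapped. Within WT the highest library was 8.45 times the lowest, and within cKO 8.70 times, where the other 9 factors reached at most 1.78 times. These gaps were wider than counting error, with exact Poisson 95% intervals of 12.2 to 30.9 reads in WT replicate 1 and 132 to 182 reads in WT replicate 3. The log2 difference between genotypes was 0.48 (SE 0.59, 95% interval -0.88 to 1.83, limma adjusted p = 0.745) and turned to -0.03 without cKO replicate 3.

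The blood factor genes Klf1 and Tal1 showed the same split of the libraries. Klf1, a factor of red cell maturation, had 1.48, 1.59 and 14.1 FPKM in WT and 1.41, 7.32 and 14.4 FPKM in cKO libraries. Tal1, a factor of early blood cells, had 0.976, 1.63 and 5.62 FPKM in WT and 1.98, 3.97 and 7.84 FPKM in cKO libraries. The same 3 libraries, WT replicate 3 and cKO replicates 2 and 3, were the highest for Gata1, Klf1 and Tal1, and cKO replicate 3 was the highest of all for each. Klf1 and Tal1 were chosen after their values were seen.

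Alas2, the haem synthesis enzyme of red cells, had 16.9, 23.0 and 44.2 FPKM in WT and 37.6, 35.1 and 46.2 FPKM in cKO libraries, highest in the same pair of replicates 3 but not low in cKO replicate 1. Hbb-bs, a beta globin gene with near-identical copies between which reads may be split, had 1877, 1312 and 2232 FPKM in the WT libraries and 2378, 3060 and 3176 FPKM in the cKO libraries. All cKO libraries were above all WT ones for Hbb-bs, a step of 0.69 in log2 units (limma adjusted p = 0.380) that was 0.24 after quantile normalization. The mast cell genes Cpa3 and Tpsb2 did not share the pattern: Tpsb2 had 2.45, 2.02 and 1.23 FPKM in WT and 0.588, 1.67 and 0.807 FPKM in cKO libraries. Of the 8 genes in the red and mast cell list, 7 were tested and 0 passed the adjusted threshold, with 5 positive and a median log2 difference of 0.56. Their summed level was 2371 to 4471 FPKM in WT and 4185 to 5581 in cKO libraries, most of it globin. The part of blood cells in the Gata1 level was not tested.

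**Figure D2:**
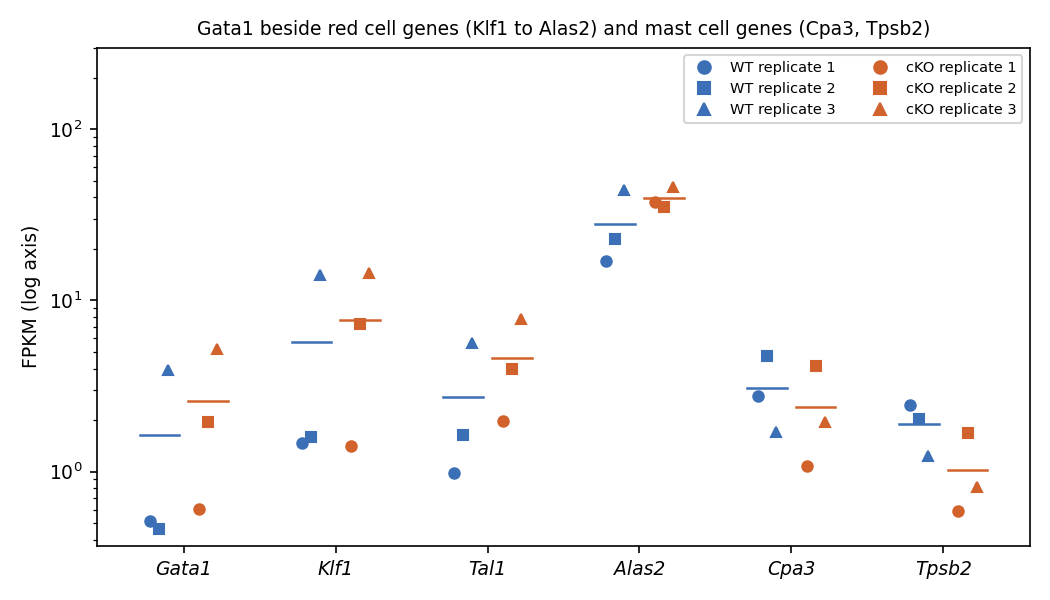
FPKM on a log axis of Gata1, of the red cell genes Klf1, Tal1 and Alas2 and of the mast cell genes Cpa3 and Tpsb2, 1 point per library with the group mean as a line. WT replicate 3 and cKO replicates 2 and 3 stand above the other libraries for Gata1, Klf1 and Tal1, and not for the mast cell genes.

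Gata1 (ENSMUSG00000031162) lies on chromosome X at 7959260 to 7978071 of GRCm38, minus strand. It is known to use a distal first exon in Sertoli cells and a proximal one in blood precursors, but the table holds 1 value per gene and cannot separate them. In GENCODE M21 its most upstream start lies 10161 bases before the start that the RefSeq promoter table uses. A RefSeq promoter window of 300 bases (GRCm38.p6, 250 before the start and 50 after) was present for 4 of the 10 factors, Sox8, Emx2, Gata1 and Nr0b1. The Gata1 window, at the proximal start, and the Nr0b1 window are shown because these genes carry the spread and the non-overlap described here. They are written 5′ to 3′ with any match to 3 motifs in capitals, and span chrX:7967861-7968160, minus strand, and chrX:86191525-86191824, plus strand.
Gata1 promoter: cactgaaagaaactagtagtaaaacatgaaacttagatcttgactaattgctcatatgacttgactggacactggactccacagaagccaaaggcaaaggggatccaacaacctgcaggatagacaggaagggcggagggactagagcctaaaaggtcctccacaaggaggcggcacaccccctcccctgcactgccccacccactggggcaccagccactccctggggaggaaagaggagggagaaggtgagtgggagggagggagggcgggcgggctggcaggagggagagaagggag
Nr0b1 promoter: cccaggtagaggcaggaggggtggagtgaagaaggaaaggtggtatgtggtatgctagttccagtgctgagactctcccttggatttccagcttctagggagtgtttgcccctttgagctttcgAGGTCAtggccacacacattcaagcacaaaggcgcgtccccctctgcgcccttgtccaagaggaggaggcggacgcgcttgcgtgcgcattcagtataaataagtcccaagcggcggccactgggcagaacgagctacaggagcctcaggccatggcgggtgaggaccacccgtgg
The motifs were AGGTCA, a core of nuclear receptor sites such as that of NR5A1, GATAA, a core of GATA sites, and ACAAT, a core of SOX sites, each searched on both strands. In Nr0b1, AGGTCA was found 1 time, beginning 126 bases before the start, and GATAA and ACAAT were not found. The Gata1, Sox8 and Emx2 windows held none of the 3. Over the 32851 windows of the same length in the table, 16.3% held AGGTCA, 25.4% GATAA and 31.0% ACAAT, so a single match is common.

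Among the nuclear receptors, Nr5a1, which encodes SF-1, the factor of gonad formation and steroid synthesis, had 93.1, 87.3 and 123 FPKM in the WT libraries and 91.4, 74.8 and 78.8 FPKM in the cKO libraries. The groups overlapped through cKO replicate 1, and the cKO mean was 80.7% of the WT mean. The log2 difference was -0.30 (SE 0.16, 95% interval -0.67 to 0.08, limma adjusted p = 0.479). It was -0.15 without WT replicate 3 and -0.12 with length and GC trends removed. Leydig cells also express Nr5a1, and their 8 markers (7 tested, 3 negative, median log2 difference 0.19) had summed levels that overlapped, 1321 to 1952 FPKM in WT and 1532 to 1789 in cKO libraries. Lhcgr, the receptor for luteinising hormone, was at 10.6 ± 2.11 FPKM in WT against 15.4 ± 2.28 in cKO testis (SD, n = 3), a log2 difference of 0.51 (limma adjusted p = 0.379) that was 0.28 with length and GC trends removed.

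Nr0b1, which encodes DAX1, a repressor of NR5A1-driven transcription, had 8.24, 6.75 and 7.09 FPKM in WT and 6.51, 6.47 and 6.17 FPKM in cKO libraries. Every cKO library lay below every WT library, as in 9.92% of all tested genes in this direction. The step was small, -0.18 on the log2 scale (SE 0.11, 95% interval -0.44 to 0.08, limma adjusted p = 0.530). The reads behind it were few, 205 to 237 in WT and 182 to 206 in cKO libraries, and the Poisson 95% interval of the lowest WT library, 5.86 to 7.74 FPKM, held all 3 cKO values. With length and GC trends removed the difference was -0.00. The gene (ENSMUSG00000025056) lies on chromosome X at 86191764 to 86195947 of GRCm38, plus strand.

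Wt1, a zinc finger factor that keeps Sertoli cells in their lineage, had 26.2, 29.8 and 32.7 FPKM in WT and 26.9, 28.3 and 28.95 FPKM in cKO libraries. The cKO libraries lay inside the WT range. The log2 difference was -0.07 (SE 0.12, 95% interval -0.34 to 0.21, limma adjusted p = 0.815). Its interval corresponded to 78.8 to 115% of the WT level on the FPKM + 1 scale.

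Emx2, a homeobox factor of the early gonad and kidney, had 5.32, 6.15 and 9.48 FPKM in WT and 6.75, 6.20 and 6.45 FPKM in cKO libraries. WT replicate 3 stood high, and the log2-scale difference, -0.06 (SE 0.19, 95% interval -0.49 to 0.36, limma adjusted p = 0.901), turned to 0.15 without it. Emx2 shares exon bases with Emx2os on the opposite strand, which was at 1.56 ± 0.279 FPKM in WT against 1.87 ± 0.238 in cKO testis (SD, n = 3).

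Dmrt1, the DM-domain factor that holds the male state in both Sertoli and germ cells, had the lowest log2 difference of the 10 in this fit. Other factors lay lower than Dmrt1 under some alternatives. Without WT replicate 1, Sox9 (-0.36), Nr5a1 (-0.35) and Gata4 (-0.30) were below Dmrt1 (-0.28), and without WT replicate 2 Nr5a1 (-0.39) was below Dmrt1 (-0.38). With length and GC trends removed, Sox9 (-0.27) and Nr5a1 (-0.12) were below Dmrt1 (-0.11). With estimated library weights, Nr5a1 (-0.53), Emx2 and Sox9 (both -0.37) and Gata4 (-0.33) were below Dmrt1 (-0.29). It had 21.6, 18.6 and 17.2 FPKM in the WT libraries and 15.8, 15.3 and 12.8 FPKM in the cKO libraries. Every cKO library lay below every WT library, and the means were 19.1 ± 2.25 and 14.6 ± 1.64 FPKM (SD, n = 3), 76.6% of WT. The log2 difference was -0.36 (SE 0.13, 95% interval -0.67 to -0.06), with an unadjusted limma p of 0.0259 and an adjusted p = 0.380, short of the threshold over all genes. The gene (ENSMUSG00000024837) lies on chromosome 19 at 25505618 to 25604329 of GRCm38, plus strand, with exons clear of other annotated genes.

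Germ cells also express Dmrt1, and most of their tested markers had a positive difference. Of 10 markers 8 were tested, 7 were positive, 0 passed, and the median log2 difference was 0.17. The negative one was Sohlh1, at -0.26 with overlap. It had 52.1, 26.2 and 14.8 FPKM in WT and 34.0, 22.5 and 15.1 FPKM in cKO libraries. Like Dmrt1, Sohlh1 fell at each step from replicate 1 to replicate 3 in both groups. So did the germ cell markers Uchl1, Sall4 and Stra8, while Ddx4, Dazl, Kit and Tex14 did not. Tex14, of the bridges between germ cells, was at 12.6 ± 1.06 and 18.2 ± 2.84 FPKM, and Dazl, an RNA-binding protein gene, at 24.8 ± 5.62 and 35.7 ± 7.01 FPKM in WT and cKO (SD, n = 3). On the log2 scale Dazl was at 0.52, at 0.18 with length and GC trends removed, and at 0.72 with estimated library weights, where it passed (limma adjusted p = 0.0459). Their summed level overlapped, 151 to 337 FPKM in WT and 198 to 294 in cKO libraries. The part of germ cell number in the Dmrt1 value was not tested.

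**Figure D3:**
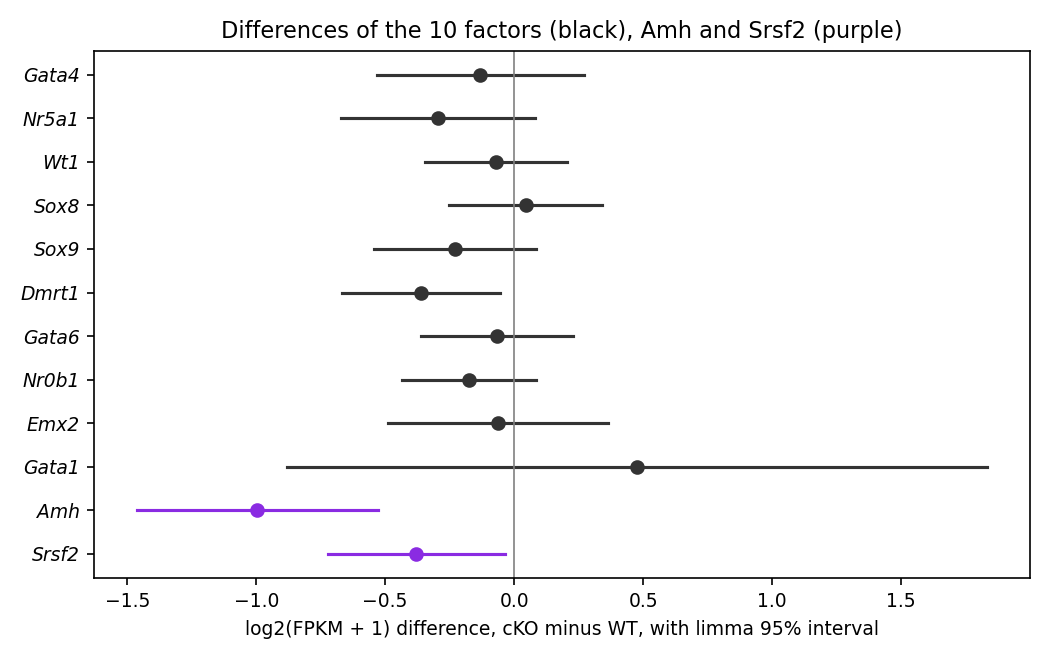
Log2(FPKM + 1) difference, cKO minus WT, with the limma 95% interval, for the 10 factors in order of level and for Amh and Srsf2. The intervals of 9 factors include 0, that of Dmrt1 runs from -0.67 to -0.06, and that of Gata1 is the widest.

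The limma intervals of the reported fit describe these factors in whole-testis RNA and set no limit on a loss within Sertoli cells. Their centres also depended on the fit. Nr5a1 had a log2 difference of -0.30 in this fit, -0.53 with estimated library weights and -0.12 with length and GC trends removed. The interval of Gata1 was the widest, at 54.3 to 357% of the WT level, on an FPKM + 1 scale that understates changes of low genes. For the other factors, the lower ends lay between 62.7% (Nr5a1) and 84.0% (Sox8) of the WT level. Their upper ends lay between 96.2% (Dmrt1) and 129% (Emx2). Wt1, Gata6 and Sox8 had the highest lower ends, at 78.8, 77.9 and 84.0%.

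Sertoli effector genes, the products these factors act on, stood further below WT. This list was drawn up with earlier results of these data known, so its direction is no independent evidence. Amh had 907, 619 and 777 FPKM in the WT libraries and 454, 366 and 330 FPKM in the cKO libraries, which on the log2 scale was -0.995 (SE 0.20, 95% interval -1.46 to -0.53, limma adjusted p = 0.360), and -0.65 with length and GC trends removed. Cst9, a cystatin gene, stood at -1.01, Aard at -0.74 and Shbg, which encodes a carrier of sex steroids, at -0.66, and none of the 3 passed over all genes. With estimated library weights, a setting that called 680 genes in all, Amh, Cst9, Aard and Shbg passed, with limma adjusted p of 0.0389, 0.0389, 0.0435 and 0.0413.

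Of 27 tested effectors, 23 were negative, against 49.2% of all tested genes. At an unadjusted limma p under 0.05, 13 were lower and 0 were higher, against 7.68% and 4.65% of all tested genes. After adjustment 0 passed, where 0.014% of all tested genes did. With estimated library weights 11 effectors passed, in a setting that called 680 of 14238 genes. The median log2 difference was -0.39, against -0.10 for the 10 factors and 0.00 for all tested genes. The groups did not overlap, with cKO lower, for 15 of 27 effectors and for 2 of 10 factors, against 9.92% of all tested genes. With cKO higher, this held for 0 effectors and 0 factors, against 8.69% of all tested genes. The tally of 13 was 9 without cKO replicate 3. The summed level of all 28 effectors was 2328 to 3136 FPKM in WT and 1763 to 1979 FPKM in cKO libraries, with no overlap. The summed level of the 10 factors, mostly Gata4 and Nr5a1, was 277 to 367 FPKM in WT and 260 to 299 FPKM in cKO libraries, with overlap.

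**Figure D4:**
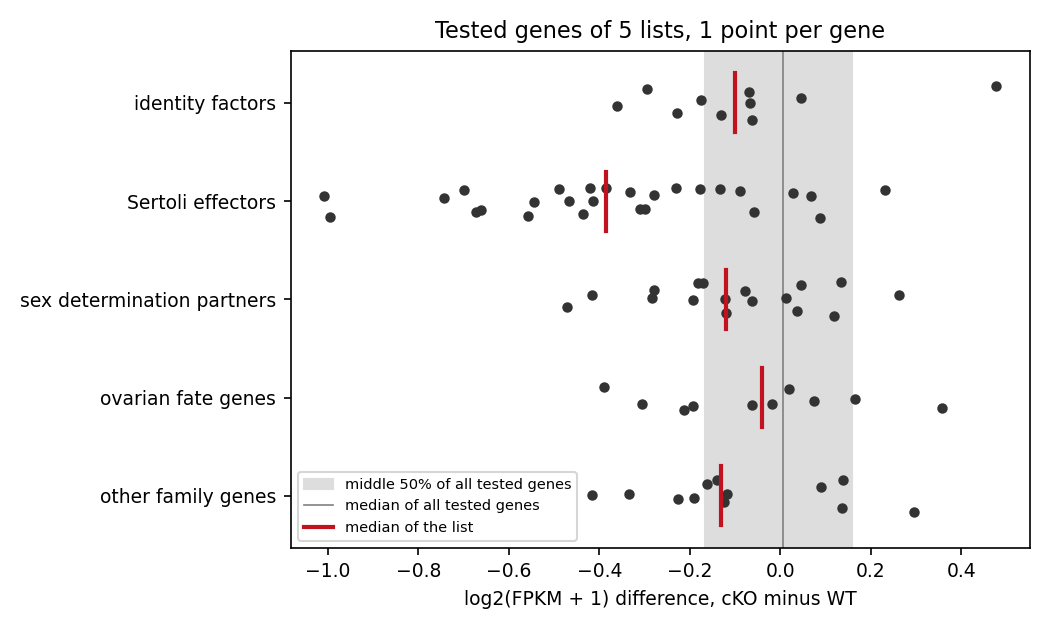
Log2(FPKM + 1) difference, cKO minus WT, of each tested gene in 5 lists, with the list median in red, the median of all tested genes as a grey line and their middle 50% as a grey band. The effector median of -0.39 lies left of the band and the medians of the other 4 lists lie inside it.

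Whether Amh and a regulator differed by the same amount was measured within each library, as log2(FPKM + 1) of Amh less that of the regulator. Amh less Sox9 was 5.24 ± 0.464 in WT against 4.47 ± 0.190 in cKO testis (SD, n = 3), a difference of -0.77. The differences were -0.93 for Amh less Wt1, -0.86 for Amh less Gata4 and -0.70 for Amh less Nr5a1. In all 4 pairs every cKO library lay below every WT library. The 4 pairs share the same Amh values, so they are not separate observations. Each exact two-sided permutation p was 0.1, also after adjustment over the 4 pairs, which is the smallest that 3 against 3 can give, so the design cannot reach 0.05. On the linear scale Amh was 57.3, 30.3 and 36.2 times as abundant as Sox9 in the WT libraries and 26.6, 24.0 and 20.5 times in the cKO libraries.

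**Figure D5:**
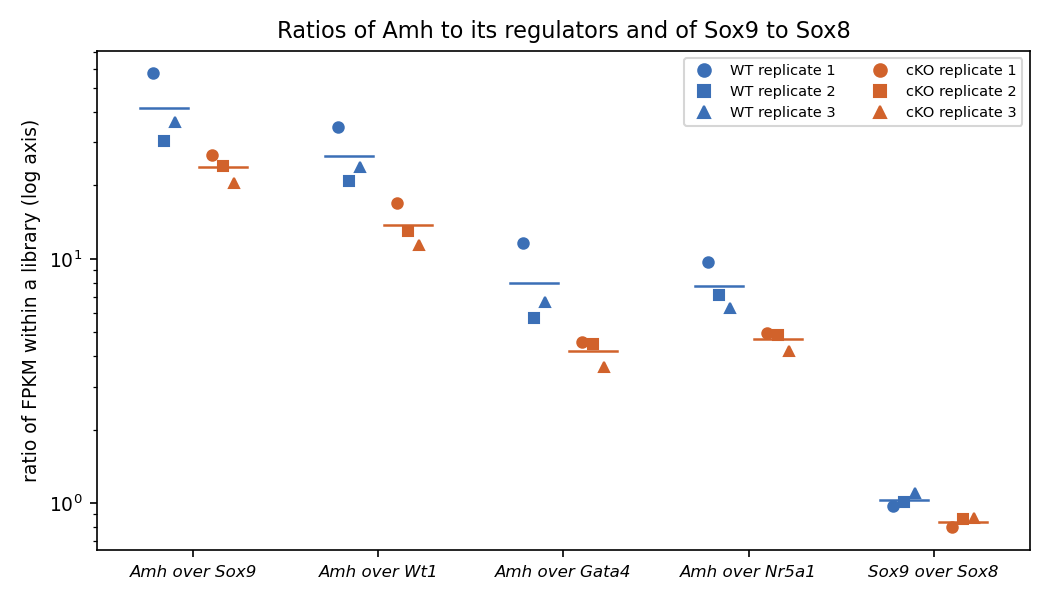
Ratio of FPKM within each library, on a log axis, for Amh over Sox9, Wt1, Gata4 and Nr5a1 and for Sox9 over Sox8, 1 point per library with the group mean as a line. In all 5 ratios the 3 cKO points lie below the 3 WT points.

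No other gene of the sex determination list passed the threshold. Sry, the switch itself, was listed at 0 in all 6 libraries. Of 21 listed partners 17 were tested, 11 were negative and 0 passed, with a median log2 difference of -0.12. Tcf21, a factor of gonadal mesenchyme, was at 129 ± 28.2 FPKM in WT against 92.1 ± 10.9 in cKO testis (SD, n = 3), the lowest at -0.47 (-0.30 without WT replicate 1). Pdgfa, a growth factor gene, stood at -0.28 and Fgfr2, the receptor of FGF9 signalling, at 0.26, both without overlap between groups. Pdgfa was at -0.062 with length and GC trends removed and -0.19 without WT replicate 1, and Fgfr2 at 0.14 without that library and 0.13 with estimated library weights.

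Genes of the opposite, ovarian fate did not pass either. Of 15 listed genes 10 were tested, 6 were negative and the median was -0.04. Rspo1 and Wnt4, which drive ovarian development, were at -0.39 and -0.31, while Lef1, a WNT effector, was at 0.36, with limma adjusted p of 0.397, 0.406 and 0.400. With length and GC trends removed Rspo1 was at -0.097 and Wnt4 at -0.17, with estimated library weights they were at -0.61 and -0.46 and Rspo1 passed (adjusted p = 0.0476), and Lef1 was at 0.54 in limma voom. Foxl2, the granulosa cell factor, was below the filter, at 0.786 ± 0.222 FPKM in WT against 0.604 ± 0.179 in cKO testis (SD, n = 3).

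Other genes of the same families gave no call. Of 20 listed genes 12 were tested, 8 were negative and 0 passed, with a median of -0.13. Sox18, a factor of blood and lymph vessels, was at 29.6 ± 0.687 FPKM in WT against 25.2 ± 0.420 in cKO testis (SD, n = 3), a log2 difference of -0.23 that was 0.07 with length and GC trends removed. Across the remaining 980 tested transcription factor genes, 40.6% were negative, the median was 0.06, and 82 (8.37%) had all cKO libraries below WT. Of DM-family genes, 3 were tested, and Dmrt1 was the most abundant of them at a mean of 16.9 FPKM, followed by Dmrtc2 at 2.48. Gata4 led the 11 tested genes of the GATA-type zinc finger family, while Sox8 and Sox9 stood at positions 15 and 16 of 42 HMG-box genes.

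Markers of the remaining cell types gave no call in the reported fit. Of 8 myoid and stroma markers 7 were tested, 3 negative, with a median of 0.01, and of 8 endothelium and macrophage markers 8 were tested, 5 negative, with a median of -0.05. All 3 tested adrenal cortex markers of 4 were positive, with a median of 0.19, at summed levels of only 13.3 to 23.0 FPKM in WT and 19.1 to 22.6 in cKO libraries. C1qa, a complement gene of macrophages, had 7.01, 7.22 and 8.37 FPKM in the WT libraries and 5.41, 4.09 and 4.07 FPKM in the cKO libraries. All cKO libraries were below all WT ones for C1qa, -0.63 in log2 units (limma adjusted p = 0.360). It was at -0.34 with length and GC trends removed and passed with estimated library weights (-0.78, adjusted p = 0.0389). Tie1, an endothelial receptor, and Des, the muscle filament desmin, were both at -0.28 without overlap (adjusted p = 0.403 for each), and at -0.11 and -0.15 with those trends removed. Mc2r, the ACTH receptor of the adrenal cortex, was at 0.59 with overlap (adjusted p = 0.393) and at 0.32 with estimated library weights. The part of these cell types in the levels of the factors was not tested.

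The genes whose profile over the 6 libraries was most like the most abundant factors were found by Pearson correlation of log2(FPKM + 1). For Gata4 these were Loxl3, Trim39 and Nid2 (r = 0.998, 0.996 and 0.994), for Nr5a1 Mir7655, Cdk5r1 and Eno2 (0.989, 0.989 and 0.986), and for Wt1 Snx33, Polm and Gm28901 (0.988, 0.986 and 0.986). With 6 libraries that share their scaling, and 14238 genes to choose from, high values are found for many genes, and these are given as a description.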

How the data were processed

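RNA of 6 whole-testis samples was measured by RNA sequencing. Trizol was used for extraction and a SMARTER mRNA-Seq kit for the libraries, per the labels' protocols. The values are gene-level FPKM in 1 table that the authors deposited, and builds GRCm38 and mm10 are listed per the submitters' processing notes. Aligner, counting tool, annotation and strand setting: not given in the sources used here. Positions in the table differ from GRCm38 ones, so those printed were looked up by gene identifier in GENCODE M21.

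In each library the product of FPKM and gene length came in whole steps (100% of values below 1000 steps, within 0.01 of a step), which gave reads per gene. The intervals made from them cover counting error only. Differences, cKO minus WT, were tested in limma (version 3.58.1, R 4.3.3) on log2(FPKM + 1), with a trend of variance on mean, for genes averaging at least 1 FPKM. On this scale the change of low genes is understated. Exact permutation tests used every split of the samples. Tables and plots used Python 3.11.15, pandas 2.3.3, numpy 2.4.6, scipy 1.17.1 and matplotlib 3.10.9.

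The 10 factors and the 10 other gene lists were chosen with earlier results of these data known. Named were Srsf2, Amh, the 10 factors, up to 4 genes per list with the lowest unadjusted p, and the 3 genes most like each of the 3 most abundant factors. Genes outside that rule are Klf1, Tal1, Cpa3, Sohlh1, Uchl1, Stra8 and Kit, chosen after their values were seen. Also outside it are Foxl2, Sry, Emx2os, Mettl23, Mfsd11 and Dmrtc2, which were named as listed, overlapping or family genes. One red cell gene was left out of its list and is not reported here. Promoters are those of RefSeq on GRCm38.p6. Alternatives were smaller pseudocounts (0.1, 0.5), filters of none or a mean of 5 FPKM, 4 scalings, 3 variance models, the replicate block, removal of length and GC trends (splines with 5 degrees of freedom, GC known for 97.9% of tested genes), limma voom on recovered reads, and leaving out each library.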

Additional observations from a re-analysis of the deposited data

How the results depend on the processing

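None of the 10 factors passed over all genes under any of the 21 alternatives that gave a fit (20 for Gata1, which a filter of 5 FPKM removed). The lowest adjusted p was 0.0602, for Sox9 with estimated library weights, a setting that gave 680 calls over all genes where the reported fit gave 2. Under those weights all 10 factors had a negative log2 difference, with a median of -0.24, and Amh, Cst9, Shbg, Aard, Sox10, Rspo1, Dazl and C1qa passed, as did 11 of the 27 effectors. Gata4 was at -0.33 and Gata6 at -0.20 there. Planned count-model tests were left out, since the unit is FPKM.

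Directions turned as follows. With estimated library weights, Sox8 stood at -0.042, Gata1 at -0.070 and Klf1 at -0.27. With length and GC trends removed, with or without the block, Gata6 was at 0.093 and Sox18 at 0.072, and the median of the 10 factors was -0.02 and that of the effectors -0.28. Without 1 library in turn, Sox8 ranged from -0.044 (WT replicate 1) to 0.10, Wt1 from -0.15 to 0.0042 (WT replicate 3), Gata6 from -0.17 to 0.021 (WT replicate 3), Emx2 from -0.21 to 0.15 (WT replicate 3), Gata1 from -0.029 (cKO replicate 3) to 1.05, and Klf1 from -0.035 (cKO replicate 3) to 1.42. The cause was not tested.

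Without 1 library in turn, Amh less Sox9 ranged from -0.96 to -0.51, Amh less Wt1 from -1.08 to -0.71, Amh less Gata4 from -1.07 to -0.56 and Amh less Nr5a1 from -0.83 to -0.52. The pairs were not run with length and GC trends removed. In that setting Amh stood at -0.65, Sox9 at -0.27, Nr5a1 at -0.12, Wt1 at -0.020 and Gata4 at -0.016. Amh thus lay closer to each of the 4 regulators than in the reported fit. The replicate numbers are shared by both groups, and deviations of same-numbered libraries correlated at 0.0948, -0.331 and 0.393. With 3 libraries per group, these values cannot tell whether same-numbered libraries belong together. The unadjusted limma p of Gata1 was 0.441 in the reported fit and 0.0731 with the replicate block. It was 0.0220 with the block and length and GC trends removed (adjusted p = 0.510). With the replicate block, 0 factors passed and 0 genes were called in all, and Dmrt1 had an adjusted p of 0.394. Few reads limit Nr0b1, while for Gata1 the spread between libraries was wider than counting error. Gata1 was at 0.82 with a pseudocount of 0.1 and at 0.90 in limma voom.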
